A study of Mus musculus with 13 samples.

Results

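Adhesion G protein-coupled receptors are cell-surface receptors that join a long extracellular region, built for contact with neighboring cells and matrix, to a bundle of membrane-spanning helices. Their genes were listed from the counts of 6 back skin libraries by symbol (Adgr, a subfamily letter and digits), which gave 27 of the 49315 genes in each file. Of these, 23 were chosen by their raw counts, with at least 10 in 3 or more of the 6 libraries, a minimum that 41.3% of all genes met. This minimum took no account of genotype, and each of the 23 had at least 1 library at the minimum in either group. The family itself was chosen with earlier results of these data known. All 8 subfamilies kept a member: 3 of 3 genes in A, 3 of 3 in B, 1 of 1 in D, 3 of 3 in E, 4 of 5 in F, 4 of 7 in G, 4 of 4 in L and 1 of 1 in V.

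The 6 libraries came from whole skin of mice at postnatal day 4 (P4), 3 wild-type (WT) and 3 with *Kctd1* and *Kctd15* floxed and K14Cre present (K14Cre+Kctd1fl/flKctd15fl/fl, or DKO), the WT mice being littermates. KCTD1 and KCTD15 are paralogous BTB-domain proteins that inhibit the transcription factor AP-2. K14Cre acts in keratinocytes and other epithelial cells that use the keratin 14 promoter, so the dermis, fat, vessels, nerves and muscle that whole skin also holds are not its targets. A further 7 libraries of 3-week epidermis, 3 from mice lacking *Kctd15* and 4 from DKO mice, were 0 at each gene in the tables used here and gave no value for any receptor. In whole skin, fewer cells of a type and less RNA per cell cannot be told apart.

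Library totals ran from 11263863 counts in DKO replicate 1 to 17643043 in WT replicate 2, and 3 counts corresponded to a CPM (counts scaled to the library total) of 0.17 to 0.266. DKO replicate 1, the shallowest library, also stood apart in its markers of hair follicle and skeletal muscle, given with the markers of other cell types near the end. The counts of *Kctd1* and *Kctd15* did not check the labels, since they include exons outside the floxed part: the normalized count of *Kctd15* was 745 ± 15.5 (SD, n = 3) in WT and 1321 ± 189 (SD, n = 3) in DKO, and that of *Kctd1* was 432 ± 19 and 742 ± 240. Each direction below therefore rests on the labels. The keratinocyte markers fixed for this tissue were measured in every library, at a summed level of 2902 to 4820 CPM per kilobase.

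Most of these receptors cut themselves during synthesis at the GPCR proteolysis site, just outside the first membrane helix. The stretch behind the cut, the tethered agonist, can then bind the receptor's own helices and activate it. Others carry no working site and may act as adhesion molecules or co-receptors. Several end in a short motif bound by PDZ-domain scaffold proteins. In skin, members are known from macrophages (*Adgre1*, the F4/80 antigen), vessels (*Adgrl4*, *Adgrf5*), Schwann cells (*Adgrg6*) and cytotoxic lymphocytes (*Adgrg1*).

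The coding sequence around the site is shown for *Adgrb1*, the member that passed the test between genotypes, and the other 2 genes of its subfamily, for *Adgrg2*, the other gene with groups that did not overlap, and for *Adgrg1* and *Adgrl2*, abundant members with the common form. Capitals mark the 3 codons at the cut, which falls between the second and the last of them. Sequences and positions are from GENCODE M21 on GRCm38, read on the coding strand of 1 principal transcript per gene.
Adgrb1: ctgtgtgacCGGCTCTCCaccttcgccatc
Adgrb2: cagtgccagCACCTGTCCacctttgccgtc
Adgrb3: ttatgtgatCGGCTCTCTaccttcgccatt
Adgrg2: acctgtagcCATCTTACAagttttggcatc
Adgrg1: ctgtgcaacCACCTGACCtactttgcagtg
Adgrl2: gcttgcagcCACCTAACCaattttgctatt
The *Adgrb1* window lies in exon 18 of 31, at chr15:74564048-74564077 on the plus strand, with its capitals starting at codon 925. That of *Adgrb2* is in exon 15 of 29 (chr4:130011898-130011927, plus strand) and that of *Adgrb3* in exon 17 of 31 (chr1:25228445-25228474, minus strand). The *Adgrg2* window is in exon 21 of 28 (chrX:160483302-160483331, plus strand), the *Adgrg1* window in exon 9 of 14 (chr8:95007633-95007662, plus strand) and the *Adgrl2* window in exon 13 of 24 (chr3:148837588-148837617, minus strand).

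The translated transcripts were searched for cysteine, any residue, cysteine, any residue, then histidine or arginine, then leucine, methionine or phenylalanine, then serine, threonine or alanine. The pattern was found in 18 of the 23 members, once in each, and in 39 of 21523 coding genes, or 0.181%. Those 39 genes include the 18 members. The residues allowed are forms that these receptors carry, so the share is a description and no test. Histidine-leucine-threonine was coded in 11 members, histidine-leucine-serine in 2 (*Adgrb2* and *Adgre4*) and arginine-leucine-serine in 2 (*Adgrb1* and *Adgrb3*). The remaining forms were each found once, in *Adgre1* (arginine-methionine-alanine), *Adgrg6* (histidine-phenylalanine-threonine) and *Adgrv1* (histidine-methionine-serine). No match was found in 5 members, *Adgra1*, *Adgra2*, *Adgra3*, *Adgrf2* and *Adgrf4*, which says only that these residues do not stand in this order in the transcript read.

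Subfamily B also shares its end. Below are the last 8 codons and the stop codon, with the last 4 codons in capitals, which code the same 4 residues in all 3 genes.
Adgrb1: atcattgacctcCAGACCGAGGTCtga
Adgrb2: gacggcgacttcCAGACAGAGGTGtga
Adgrb3: gagggtgattttCAAACAGAAGTGtaa
These ends lie at chr15:74588858-74588884 (*Adgrb1*), chr4:130022312-130022338 (*Adgrb2*) and chr1:25068168-25068194 (*Adgrb3*), in the last exon of each. The 3 members of subfamily A share another set of 4 final residues among themselves, and so do *Adgrl1*, *Adgrl2* and *Adgrl3*.

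To compare genes with one another, counts were divided by the summed exon length and by the library size after TMM scaling (trimmed mean of M values), giving a level in CPM per kilobase. Summed over the 23 members, the level was 220 ± 12.5 (SD, n = 3) in WT and 231 ± 28.4 (SD, n = 3) in DKO. The 5 most abundant members, *Adgrg1*, *Adgra3*, *Adgrl2*, *Adgrf4* and *Adgra2*, held 62.2% to 71.6% of that sum in each library. Mean levels over all libraries were at least 10 for 6 members, between 1 and 10 for 10 members and under 1 for 7 members.

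*Adgrg1* had the highest level of the family in every library and *Adgra3* the next. The 6 libraries spanned 38.4 to 79.6 for *Adgrg1* and 31.4 to 40.6 for *Adgra3*, so that their ranges overlapped. *Adgra3* lay above *Adgrl2* (22.8 to 29.3) without overlap. Further down, *Adgrl2* overlapped *Adgrf4* (17.4 to 29.7), *Adgrf4* overlapped *Adgra2* (12.2 to 18.8), and *Adgra2* overlapped *Adgrl1* (10.6 to 17.5). At the bottom of the order stood *Adgrv1*, with 0.0088 to 0.148, and *Adgrb3*, with 0.0813 to 0.182.

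**Figure D1:**
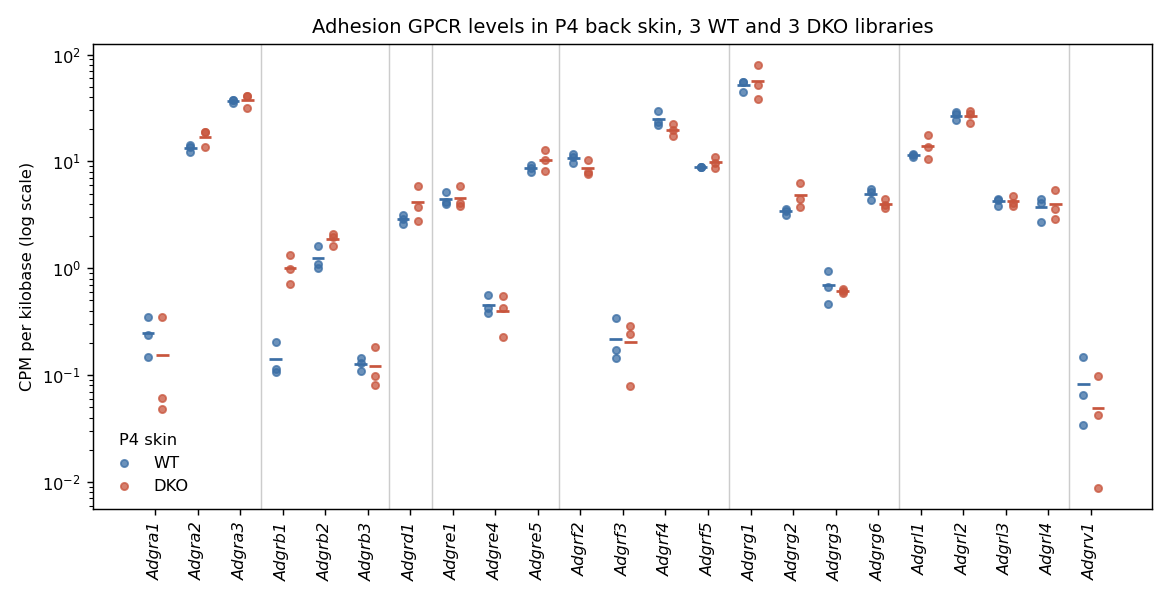
Level of each of the 23 adhesion receptor genes in CPM per kilobase (log axis), by subfamily and then by name, in 3 WT (blue) and 3 DKO (red) libraries of P4 skin, with 1 point per library and a short line at each group mean. Points of both groups overlap for most genes, while the DKO points of *Adgrb1* (0.705 to 1.34) lie above its WT points (0.107 to 0.205).

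WT and DKO were compared by edgeR's quasi-likelihood test on the counts of 20168 genes, with Benjamini-Hochberg adjustment over all of them. A gene was called at an adjusted p under 0.05 together with a log2 fold change beyond 1 in either direction. The study used these thresholds with DESeq2, which called 154 genes here. Of the 23 members, 1 was called, *Adgrb1*, against a background of 0.0694% of all genes tested (14 genes). Since the family was chosen with earlier results known, this count describes the members and is no test of the family. An unadjusted p under 0.05 was found for 4 members with a higher value in DKO (*Adgrb1*, *Adgrb2*, *Adgrg2* and *Adgra2*), where 4.96% of all genes were, and for 0 members with a lower value, where 2.54% were. The groups did not overlap for 2 members, *Adgrb1* and *Adgrg2*, both higher in DKO, and for 0 members in the other direction. Over all genes tested, 7.24% were higher without overlap and 5.96% lower. The median log2 fold change was 0.03 over the members and 0.017 over all genes tested, with 12 members above 0 and 11 below.

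**Figure D2:**
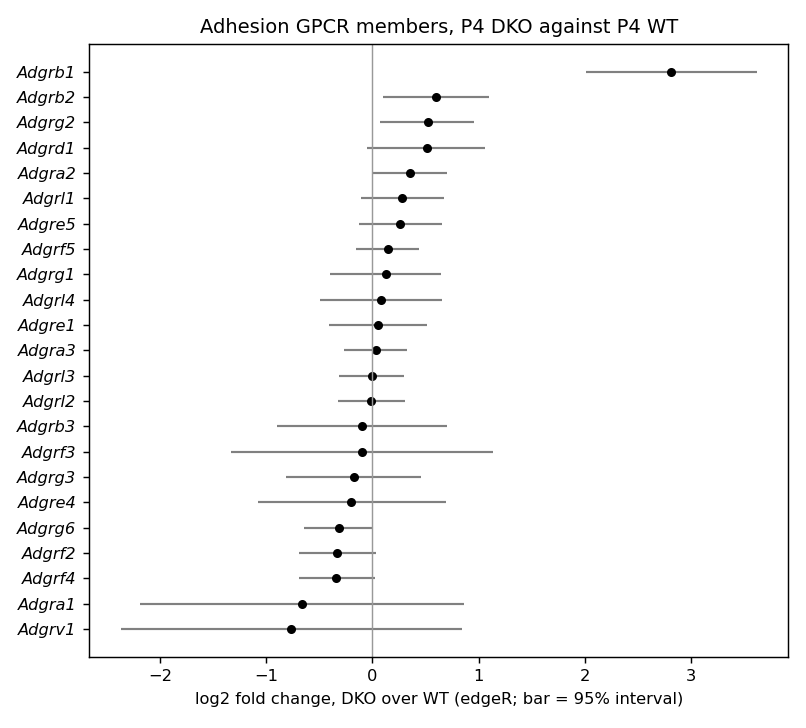
Log2 fold change of DKO over WT for each member (point, edgeR) with its 95% interval (bar), sorted by size. The interval of *Adgrb1*, 2.01 to 3.62, lies apart from those of the other members, whose fold changes run from -0.77 to 0.60.

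*Adgrb1* encodes BAI1, a receptor that binds phosphatidylserine on dying cells and passes the signal to the ELMO1-DOCK1 complex, and that is also known for a part in myoblast fusion and at synapses. The gene (ENSMUSG00000034730) lies at chr15:74516195-74589465 on the plus strand. Its raw counts were 11, 14 and 25 in WT replicates 1, 2 and 3, and 56, 127 and 103 in DKO replicates 1, 2 and 3. After TMM scaling they came to 11.2, 11.9 and 21.4 in WT and to 73.6, 140 and 103 in DKO. Every DKO library lay above every WT library, the lowest DKO value being DKO replicate 1 and the highest WT value WT replicate 3.

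The mean rose from 14.8 ± 5.69 (SD, n = 3) in WT to 105 ± 33.3 (SD, n = 3) in DKO. The log2 fold change was 2.81 (SE 0.358, 95% interval 2.01 to 3.62), with an adjusted p of 0.0315 by edgeR's quasi-likelihood test. DESeq2 gave an adjusted p of 5.73e-09. The call was lost when WT replicate 1, WT replicate 2, WT replicate 3 or DKO replicate 3 was left out, with adjusted p-values of 0.249, 0.217, 0.0931 and 0.114 by edgeR and log2 fold changes of 2.65, 2.66, 3.16 and 2.84. It held without DKO replicate 1 (adjusted p = 0.0027) and without DKO replicate 2 (adjusted p = 0.0429, same edgeR test). At 11 to 25 counts per WT library, the size of the fold rests on few WT reads.

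The sample titles carry 1 of 2 numbers, 40972 or 47347, each shared by WT and DKO mice and not explained in the labels. *Adgrb1* was higher in DKO within either number. The log2 ratio of normalized counts was 1.78 for number 40972, with 1 library per group, and 3.39 for number 47347, with 2 libraries per group. A small RNA gene, *Gm26117*, lies within *Adgrb1* on the same strand and covers 1.38% of its exon length, and its own count was 0 in all libraries. How reads lying in both genes were counted is not given in the sources used here, so this 0 does not show that *Gm26117* was silent.

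*Adgrb2* encodes BAI2 and had the highest level of its subfamily. Its normalized counts were 99.9, 109 and 158 in WT and 193, 206 and 157 in DKO. DKO replicate 3 fell just short of WT replicate 3, so the groups overlapped. *Adgrb2* had a log2 fold change of 0.60 (95% interval 0.10 to 1.10), which did not pass the test (adjusted p = 0.532, edgeR).

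*Adgrb3* encodes BAI3, a receptor for C1q-like proteins at synapses that is also known from myoblast fusion. Its normalized counts were 40.8, 36.5 and 30.8 in WT and 51.3, 27.6 and 22.9 in DKO. The DKO values lay on both sides of the WT values. DKO over WT, the log2 fold change was -0.10 (95% interval -0.90 to 0.70, adjusted p = 0.976, edgeR), and it was 0.02 without DKO replicate 2 and 0.12 without DKO replicate 3.

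Within subfamily B, *Adgrb1* took a larger share in the DKO libraries. The summed level of the subfamily was 1.51 ± 0.357 (SD, n = 3) in WT and 3.01 ± 0.46 (SD, n = 3) in DKO. *Adgrb1* contributed 8.48%, 8.45% and 10.7% of that sum in the WT libraries and 24.7%, 38% and 36.9% in the DKO libraries. In the order of the family by level, *Adgrb1* held place 22, 22 and 20 in WT and place 17 in each DKO library, where it lay below *Adgrb2*. These shares use the same counts as the test of *Adgrb1* and are no separate evidence for it.

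**Figure D3:**
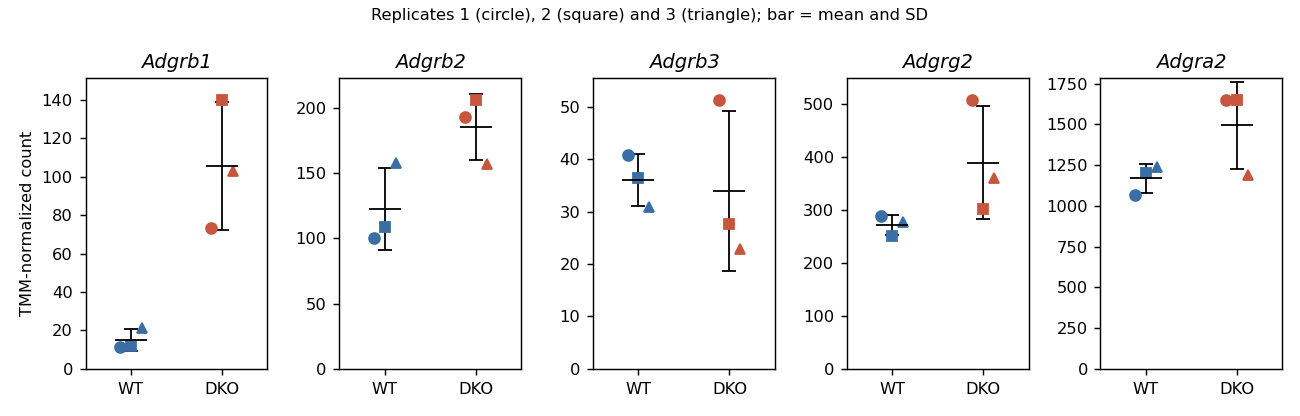
TMM-normalized count in each library (points, with symbols for replicates 1 to 3) with the mean and SD of each group (black), for subfamily B, *Adgrg2* and *Adgra2*, each on its own linear axis from 0. WT and DKO points are apart for *Adgrb1* and *Adgrg2* and overlap for the other 3 genes.

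*Adgrg2*, known from the efferent ducts of the male tract, was the other gene without overlap (chrX:160390690-160498070, plus strand). Its normalized counts were 288, 251 and 276 in WT and 507, 301 and 359 in DKO. DKO replicate 2 lay only slightly above WT replicate 1, and DKO replicate 1 was the highest. The log2 fold change of 0.52 (95% interval 0.07 to 0.96) did not pass the test (adjusted p = 0.555, edgeR), and without single libraries it ran from 0.27 to 0.67. Within the numbers in the titles the log2 ratio was 0.88 for 40972 and 0.29 for 47347. Exons of *Gm15241* on the opposite strand cover 2.6% of the exon length of *Adgrg2*, and the strand setting of the counting is not given in the sources used here.

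*Adgrg1* encodes GPR56, which binds collagen III and transglutaminase 2. Its level was 54.8, 55.7 and 45.0 in WT and 38.4, 79.6 and 51.9 in DKO. The lowest and the highest value were both in DKO, in replicates 1 and 2. The log2 fold change was 0.13 (95% interval -0.40 to 0.65, adjusted p = 0.959, edgeR), and without DKO replicate 2 it was -0.19.

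The remaining members of subfamily G were *Adgrg6* and *Adgrg3*. *Adgrg6* encodes GPR126, needed by Schwann cells for myelination, and had a mean level of 4.98 ± 0.589 (SD, n = 3) in WT and 4.01 ± 0.39 in DKO. Its log2 fold change was -0.31 (95% interval -0.64 to 0.01, adjusted p = 0.685, edgeR). *Adgrg3*, a receptor of granulocytes, had a log2 fold change of -0.17 (95% interval -0.81 to 0.46), which was 0.10 without WT replicate 3. In this subfamily 3 genes stayed under the minimum, *Adgrg4* with at most 1 raw count in a library, *Adgrg7* with at most 6 and *Adgrg5* with at most 9. *Adgrg5*, *Adgrg1* and *Adgrg3* are neighbors on chromosome 8, 31.5 kb and 3.48 kb apart, yet the mean level of *Adgrg1* over all libraries was 54.2 and that of *Adgrg3* 0.651.

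Subfamily A holds *Adgra2*, or GPR124, a co-receptor that works with RECK to pass on WNT7 signals in brain vessels. Its normalized counts were 1067, 1201 and 1240 in WT and 1650, 1647 and 1188 in DKO. DKO replicate 3 lay within the WT values, while DKO replicates 1 and 2 lay above them. *Adgra2* had a log2 fold change of 0.35 (95% interval 0.00 to 0.70) with an unadjusted p of 0.0475, and it did not pass the test (adjusted p = 0.657, edgeR). *Reck*, its partner, had a log2 fold change of 0.33 (95% interval -0.12 to 0.78).

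*Adgra3*, or GPR125, linked to planar cell polarity, had levels of 37.3, 37.7 and 35.3 in WT and 31.4, 40.5 and 40.6 in DKO. The WT values lay within the DKO range. *Adgra3* had a log2 fold change of 0.03 (95% interval -0.27 to 0.33), close to 0 and of either sign when single libraries were left out (-0.03 to 0.13) or with total counts (-0.01). *Adgra1*, best known from brain, was near the minimum, with raw counts of 19, 34 and 14 in WT and 3, 26 and 5 in DKO. For *Adgra1* the log2 fold change was -0.66, with a wide interval of -2.19 to 0.86.

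Subfamily D is *Adgrd1*, or GPR133. Its levels were 2.60, 3.18 and 2.91 in WT and 5.87, 3.75 and 2.75 in DKO. DKO replicate 1 was high, and DKO replicate 3 lay within the WT values. On the log2 scale the fold change was 0.51 (95% interval -0.05 to 1.06, adjusted p = 0.732, edgeR). Within number 40972 the log2 ratio was 1.01 and within number 47347 it was 0.17.

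Subfamily E contains receptors of leukocytes. *Adgre5*, or CD97, whose ligands include CD55 and THY1, had the highest level of the subfamily, at 8.65, 9.27 and 7.89 in WT and 12.7, 10.2 and 8.15 in DKO. DKO replicate 1 was again the highest, and the groups overlapped. The log2 fold change was 0.26 (95% interval -0.13 to 0.66, adjusted p = 0.866, edgeR). Exons of *Ddx39* on the opposite strand cover 23.8% of the exon length of *Adgre5*, so its count may be too low or too high if strand was not used.

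*Adgre1*, the macrophage antigen F4/80, had normalized counts of 218 ± 29.4 (SD, n = 3) in WT and 226 ± 55.8 in DKO. Its log2 fold change was 0.05 (95% interval -0.41 to 0.51), and it ran from -0.17 to 0.17 when single libraries were left out. *Adgre4*, another myeloid receptor, had a mean level of 0.458 ± 0.0951 (SD, n = 3) in WT and 0.398 ± 0.159 in DKO, a log2 fold change of -0.20 (95% interval -1.08 to 0.69). The summed level of the 10 macrophage markers was 78.6 to 98.5 in WT and 85.7 to 107 in DKO, which overlapped. Of these markers 8 had a fold change above 0 (median log2 fold change 0.31), where 52.9% of all genes tested had. *Csf1r* (0.42, unadjusted p = 0.0271, edgeR) and *C1qa* (0.59, unadjusted p = 0.0225, edgeR) were higher without overlap, where 7.24% of all genes tested were. None of the macrophage markers passed the adjusted test by edgeR.

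Subfamily F is led by *Adgrf4*, an orphan receptor. Its levels were 29.7, 23.4 and 22.1 in WT and 17.4, 19.6 and 22.5 in DKO. DKO replicate 3 lay just above WT replicate 3, and the other DKO values lay below all WT values. DKO over WT, the log2 fold change was -0.34 (95% interval -0.69 to 0.02) with an unadjusted p of 0.0624 and an adjusted p of 0.705 by edgeR.

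*Adgrf2* is the neighbor of *Adgrf4* on chromosome 17, 16.7 kb away with 0 genes between them, and both lack the proteolysis site pattern. Its mean level was 10.8 ± 1.04 (SD, n = 3) in WT and 8.61 ± 1.41 in DKO. Its log2 fold change of -0.33 (95% interval -0.69 to 0.03, adjusted p = 0.726, edgeR) was near that of *Adgrf4*. With the number in the titles as a block, the unadjusted p of *Adgrf2*, *Adgrf4* and *Adgrg6* fell under 0.05, and their adjusted p-values were 0.556, 0.51 and 0.522.

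*Adgrf5*, of vessels and lung epithelium, had normalized counts of 1149 ± 8.66 (SD, n = 3) in WT and 1273 ± 156 in DKO, with a log2 fold change of 0.15 (95% interval -0.15 to 0.44). *Adgrf3* was the member just inside the minimum, with raw counts of 7, 10 and 20 in WT and 3, 13 and 12 in DKO. *Adgrg5* was just outside it, with 6, 4 and 9 in WT and 4, 1 and 4 in DKO. For *Adgrf3* the log2 fold change was -0.10 (95% interval -1.33 to 1.14), with no sign that held when libraries were left out (-0.40 to 0.37). *Adgrf1*, a receptor of synaptamide, stayed under the minimum with at most 8 raw counts in a library.

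Subfamily L holds the latrophilins *Adgrl1*, *Adgrl2* and *Adgrl3*, which bind teneurins and FLRT proteins on adjacent cells, and the endothelial receptor *Adgrl4*. *Adgrl2* was the most abundant, with levels of 27.5, 28.7 and 24.2 in WT and 22.8, 29.3 and 27.9 in DKO. The ranges lay over each other. *Adgrl2* had a log2 fold change of -0.01, with a 95% interval of -0.32 to 0.31.

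*Adgrl3* had a log2 fold change of 0.00 with a 95% interval of -0.31 to 0.30, and a mean level of 4.22 in either group (SD 0.346 in WT and 0.476 in DKO, n = 3 each). For *Adgrl1* the log2 fold change was 0.28 (95% interval -0.11 to 0.67, adjusted p = 0.832, edgeR), with levels of 11.4 ± 0.329 in WT and 13.9 ± 3.47 in DKO. *Adgrl4* had levels of 3.72 ± 0.895 and 3.96 ± 1.25 and a log2 fold change of 0.08 (95% interval -0.49 to 0.66). Exons of other genes on the opposite strand cover 15.6% of the exon length of *Adgrl1* and 8.91% of that of *Adgrl3*.

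*Adgrv1*, the giant receptor of hair-cell stereocilia that is mutated in Usher syndrome, is the only gene of subfamily V. Its levels were 0.0651, 0.0339 and 0.148 in WT and 0.0979, 0.0088 and 0.0424 in DKO. In raw counts the lowest library had 3 and the highest 65, across a summed exon length of 24772 bases. Its estimated fold change, -0.77 on the log2 scale, had a 95% interval of -2.37 to 0.84, which covers values on either side of 0.

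The flamingo cadherins *Celsr1*, *Celsr2* and *Celsr3*, of planar cell polarity, belong to the same receptor class but carry other symbols, so the rule left them out. *Celsr2* had normalized counts of 7381, 7718 and 7374 in WT and 5102, 10052 and 6719 in DKO, and *Celsr1* had 4668, 5129 and 4713 in WT and 3172, 6696 and 4766 in DKO. As for *Adgrg1*, DKO replicate 1 was the lowest library for both genes and DKO replicate 2 the highest. *Celsr3* was lower, at 21.4, 54.3 and 31.7 in WT and 28.9, 28.7 and 52.8 in DKO. The log2 fold changes were 0.01 (95% interval -0.50 to 0.52) for *Celsr1*, -0.04 (-0.53 to 0.45) for *Celsr2* and 0.04 (-0.87 to 0.95) for *Celsr3*. Under other scalings or without single libraries their sign was not stable, so no direction is given.

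Among 33 ligands and partners of the receptors, 27 were tested, 22 of them with a fold change above 0, where 52.9% of all genes tested were, and the median log2 fold change was 0.16. None passed the adjusted test by edgeR, and 4 had an unadjusted p under 0.05, all higher in DKO, where 4.96% of all genes were. *Flrt1*, a latrophilin ligand, had normalized counts of 480, 493 and 530 in WT and 724, 1179 and 1008 in DKO. All DKO values lay above all WT values. On the log2 scale the fold change was 0.95 (95% interval 0.55 to 1.36, unadjusted p = 0.000413), with an adjusted p of 0.164 by edgeR and 0.00149 by DESeq2. By edgeR it was 0.00866 without DKO replicate 1, 0.11 without DKO replicate 2 and 0.236 without DKO replicate 3, and 0.692, 0.706 and 0.532 without WT replicates 1, 2 and 3. With no filter on low counts it was 0.00133.

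*Tenm1*, a teneurin, had normalized counts of 12.2, 16.1 and 13.7 in WT and 27.6, 25.4 and 25.9 in DKO, with a log2 fold change of 0.90 (adjusted p = 0.531, edgeR). *Lama2*, a laminin chain bound by the product of *Adgrg6*, had a log2 fold change of 0.40 (adjusted p = 0.54, edgeR). The other 3 teneurins had fold changes of either sign, from -0.20 for *Tenm4* to 0.16 for *Tenm3*, and *Flrt2* and *Flrt3* were at -0.03 and 0.02.

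The 26 genes of intracellular transducers, among them G protein subunits, arrestins, engulfment adapters and scaffolds, were all tested. Of these, 18 had a fold change above 0, where 52.9% of all genes tested were, and the median log2 fold change was 0.08. An unadjusted p under 0.05 was found for 4, all higher in DKO, where 4.96% of all genes were, and an adjusted p under 0.05 for none (edgeR). The groups did not overlap for 4 that were higher, where 7.24% of all genes tested were. They did not overlap for 2 that were lower, *Dock5* (log2 fold change -0.26) and *Pard3* (-0.19), where 5.96% of all genes tested were. *Dlg4* encodes PSD-95, a PDZ scaffold known to bind BAI1, and had normalized counts of 173, 192 and 252 in WT and 397, 371 and 231 in DKO. DKO replicate 3 lay within the WT values. The log2 fold change was 0.69 (95% interval 0.17 to 1.21, adjusted p = 0.472, edgeR). *Dock1*, which acts with ELMO1 behind BAI1, had 2249, 2350 and 2209 in WT and 2784, 2737 and 2864 in DKO, without overlap and with a log2 fold change of 0.30 (95% interval 0.05 to 0.55, adjusted p = 0.518, edgeR). *Elmo1* had a log2 fold change of 0.09 (95% interval -0.29 to 0.47), and *Gnai2*, an inhibitory G protein subunit, one of 0.32 (adjusted p = 0.652, edgeR).

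Because *Adgrb1* is also known from muscle, 10 genes of myoblast fusion and myogenic control were examined. Of these 8 were tested, all with a fold change above 0, 4 with an unadjusted p under 0.05, as 4.96% of all genes had in that direction, and none with an adjusted p under 0.05 (edgeR). *Pax7*, of satellite cells, had normalized counts of 9.17, 9.34 and 12.8 in WT and 40.8, 21 and 14.9 in DKO. *Mymk*, the fusion protein myomaker, had 15.3, 8.49 and 17.1 in WT and 28.9, 30.9 and 20.9 in DKO. Neither overlapped between groups, and the adjusted p-values were 0.524 and 0.584 (edgeR). *Myf6*, a myogenic factor, had 22.4, 30.6 and 35.1 in WT and 130, 34.2 and 42.8 in DKO, which overlapped.

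Markers of skeletal muscle had a higher summed level in each DKO library than in any WT library, though not every single marker did. All 24 had a fold change above 0, with a median log2 fold change of 1.06, and 20 were higher without overlap, where 7.24% of all genes tested were. None had an adjusted p under 0.05 by edgeR, but 14 did by DESeq2 and 17 by edgeR with no filter on low counts. With the title number as a block, edgeR gave 1, *Acta1* (adjusted p = 0.0396). The share of all genes with such an adjusted p in these other fits was not computed. The summed level of the muscle markers was 825 to 935 in WT and 1381 to 2703 in DKO. Relative to the WT mean, it was 3.05-fold in DKO replicate 1, 1.77-fold in DKO replicate 2 and 1.56-fold in DKO replicate 3. *Adgrb1* was 4.96-fold, 9.45-fold and 6.91-fold of its own WT mean in the same libraries. With library sizes computed without the muscle markers, the fold change of *Adgrb1* was 2.79 on the log2 scale (adjusted p = 0.0253, edgeR). That fit changed the scaling only and left the counts of *Adgrb1* as they were. What part muscle had in the value of *Adgrb1* was not tested.

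**Figure D4:**
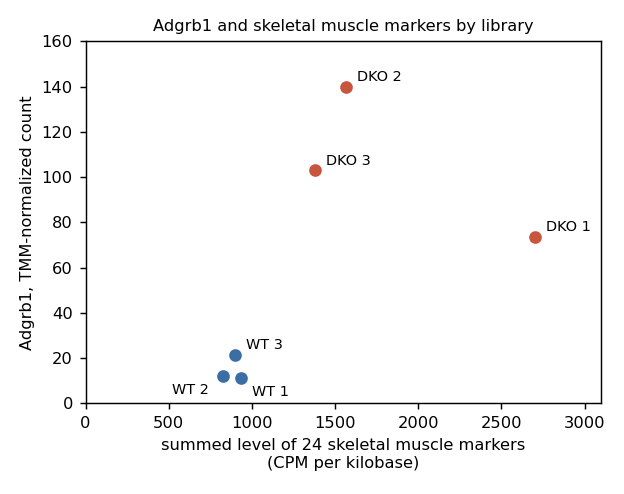
TMM-normalized count of *Adgrb1* against the summed level of 24 skeletal muscle markers (CPM per kilobase), 1 point per library, WT in blue and DKO in red. The 3 DKO libraries lie above and to the right of the WT libraries, with DKO replicate 1 farthest right at 2703 and DKO replicate 2 highest at 140.

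Within the DKO libraries, the order of *Adgrb1* was that of the targeted genes. *Kctd1* had normalized counts of 506, 985 and 735 in DKO replicates 1, 2 and 3, and *Kctd15* had 1131, 1509 and 1325, so replicate 2 was the highest and replicate 1 the lowest for all 3 genes. In WT, where *Kctd1* was at 443, 410 and 442 and *Kctd15* at 736, 737 and 763, these genes spread little. That order was not particular to these genes. *Adgrg1*, *Celsr1*, *Celsr2* and the summed hair follicle markers had it too, while the summed skeletal muscle markers did not. With 3 libraries a shared order is a description only.

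Markers of other cell types that hold these receptors varied as follows. The 8 hair follicle markers all had a fold change below 0 (median log2 fold change -0.45), with a summed level of 4048 to 4603 in WT and 1624 to 3890 in DKO, lowest in DKO replicate 1. The 10 endothelial markers, of the cells of *Adgrl4* and *Adgrf5*, summed to 61.2 to 63.6 in WT and 55.8 to 77.8 in DKO. The 8 Schwann cell markers, of the cells of *Adgrg6*, summed to 74.9 to 100 in WT and 92.6 to 120 in DKO, and the 8 neuron markers to 5.12 to 6.53 and 5.63 to 8.64, with 4 of them tested. Keratinocyte markers summed to 2902 to 3078 in WT and 3585 to 4820 in DKO. Most of that difference was in *Krt1* (mean level 725 in WT and 1255 in DKO) and *Krt10* (913 and 1270), while *Trp63* had a log2 fold change of 0.01, *Ivl* one of -0.09 and *Dsg1a*, lower without overlap, one of -0.26. The sums of fibroblast, adipocyte, melanocyte, and lymphocyte and Langerhans markers overlapped between the groups. Of all these lists only keratinocyte and skeletal muscle sums were above every WT library in each DKO library, and only the hair follicle sum was below. In the edgeR fit reported here, none of the genes of the marker and pathway lists had an adjusted p under 0.05. DESeq2 gave 18, of which 14 were skeletal muscle markers, and edgeR with no filter on low counts gave 23, 17 of them of skeletal muscle. With the title number as a block, edgeR gave 1, *Acta1*. These counts have no background, since the share of all genes with such an adjusted p in these other fits was not computed. The part of the marker genes in the receptors' values was not tested.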

How the data were processed

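Total RNA of P4 back skin from 3 WT and 3 DKO mice was depleted of rRNA and sequenced as read pairs. Per the submitters' notes and the study's methods, the authors trimmed reads with Trimmomatic 0.36, aligned them to GRCm38 with STAR 2.5.2b and counted reads per gene with featureCounts (Subread 1.5.2), and deposited raw counts, 1 table per library. The strand setting and the handling of multi-mapping reads are not given in the sources used here.

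Groups followed the sample labels. Gene symbols came from GENCODE M21, and exon overlaps from the exon coordinates given with the counts. Counts were analyzed in R 4.3.3 with edgeR 4.0.16 (filterByExpr, TMM, glmQLFit and glmQLFTest), and with DESeq2 1.42.0, the tool named by the study, as an alternative. Fits used all genes, and p-values were adjusted over the 20168 genes tested. The SE was taken as the absolute log2 fold change over the square root of its quasi-likelihood F statistic. Intervals are 95%, were built from that SE and assume the fitted error, so they restate the p-value. Each library is taken as 1 mouse, and libraries of a group differed from each other by more than sampling noise. The DKO libraries differed more. Between pairs of libraries, the chi-square per gene was 8.79 to 12.7 in WT and 25.6 to 57.2 in DKO. The fit used the same error for both groups at each gene. The code was tested on simulated data. The biological coefficient of variation was 20%. Counting floors (3 counts) cover counting error only.

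The members, gene lists and marker lists were chosen with earlier results of these data known. Every member is named. Values per library are given for members with an unadjusted p under 0.05 or groups that did not overlap and for the most abundant member of each subfamily, and beyond these for some chosen after their values were seen (*Adgrb3*, *Adgra1*, *Adgrf3*). From each pathway list the 3 genes with the smallest p were named, with others chosen after their values were seen (*Reck*, *Elmo1*, *Dock5*, *Pard3*, *Tenm3*, *Tenm4*, *Flrt2*, *Flrt3*), as were the markers named (*Csf1r*, *C1qa*, *Acta1*, *Krt1*, *Krt10*, *Trp63*, *Ivl*, *Dsg1a*). Alternatives covered the scaling, the filters, DESeq2, the number in the titles as a block and leaving out each library. The 7 epidermis libraries were not used.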

Additional observations from a re-analysis of the deposited data

How the results depend on the processing

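The call of *Adgrb1* held with DESeq2, RLE size factors, total counts, library sizes without muscle markers, every filter and the block, with log2 fold changes of 2.76 to 2.81, and it was lost without WT replicate 1, 2 or 3 or DKO replicate 3, where 3, 2, 2 and 4 genes in all were called, against 14 with all libraries. DESeq2 called 154 genes and 1 member, and 210 genes were called with no filter, 22 with total counts, 36 without DKO replicate 1 and 33 without DKO replicate 2. The title numbers are shared by 1 or 2 mice per group and the labels do not say what they mark. Deviations from the group mean correlated at -0.02 to 0.23 between libraries with the same number and at -0.15 to -0.10 otherwise. With this replicate block, 35 genes and 1 member were called, and 3 members had an unadjusted p under 0.05 and a lower value in DKO. That count, 0 in the fit reported, was 2 with total counts, 1 with no filter and 0 to 3 without single libraries. It was 1 with at least 10 counts in every library, which leaves 20 members. The share of all genes with such a p and a lower value was computed for the fit reported only. The counts under the block and the other settings thus have no background and describe the members only.

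Leaving out single libraries gave 0 to 1 members called and a median log2 fold change of 0.02 to 0.12, the highest without DKO replicate 3. Members with an unadjusted p under 0.05 (edgeR) and a higher value numbered 1 (without WT replicate 1 or 2) to 7 (without DKO replicate 3). The share of all genes with such a p was not computed for these fits, so these counts show nothing particular to the receptors. Log2 fold changes of either sign were found for *Adgra3* (-0.03 to 0.13, and -0.01 with total counts), *Adgrb3* (-0.53 to 0.12), *Adgre1* (-0.17 to 0.17), *Adgre4* (-0.51 to 0.09), *Adgrf3* (-0.40 to 0.37), *Adgrg1* (-0.19 to 0.33), *Adgrg3* (-0.39 to 0.10), *Adgrl2* (-0.09 to 0.08), *Adgrl3* (-0.10 to 0.05), *Adgrl4* (-0.20 to 0.27), *Celsr2* (-0.34 to 0.14), *Celsr3* (-0.32 to 0.47) and *Celsr1* (-0.28 to 0.23). *Celsr1* was also at 0.00 with DESeq2 and RLE size factors, -0.04 with total counts and with the block, and -0.01 without muscle markers, with no filter and with 10 counts in every library. The cause was not tested. The intervals were widest for *Adgrv1*, *Adgra1* and *Adgrf3*, and the part of depth in that was not tested.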

Other observations

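The genes around *Adgrb1* on chromosome 15 were examined for values that moved with it. Within 250000 bases on either side lie 19 other genes, of which 11 were tested, 5 with a fold change above 0 and 6 below. None had an adjusted p under 0.05 by edgeR, and 2 had an unadjusted p under 0.05. Over all genes tested, 4.96% had such a p with a higher value in DKO and 2.54% with a lower one. Without overlap, 7.24% of all genes tested were higher and 5.96% lower. *Slurp2*, which encodes a secreted protein of the Ly6 family made by keratinocytes, had a log2 fold change of -1.56 (unadjusted p = 0.000596, adjusted p = 0.194, edgeR), with every DKO library below every WT library. *Lynx1*, its neighbor and a modulator of nicotinic acetylcholine receptors, had a log2 fold change of 0.75 (unadjusted p = 0.00614, adjusted p = 0.344, edgeR), with every DKO library above every WT library. *Arc*, an immediate early gene of neurons, had a log2 fold change of -0.46 (adjusted p = 0.922, edgeR). The nearest gene tested, *Mroh4*, had one of 0.82 (adjusted p = 0.667, edgeR), and the groups overlapped.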
